A study of Mus musculus with 4 samples.

Results

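Genes that distinguish the fibroblast subtypes of the mouse lung were followed in RNA of reporter-positive lung cells labelled as smooth muscle cells (SMCs), with and without inactivation of *Tet3*. The 10 genes were *Tcf21*, *Wnt2*, *Inmt* and *Npnt* for alveolar fibroblasts, *Pi16*, *Dpt* and *Mfap5* for adventitial fibroblasts, and *Aspn*, *Lgr6* and *Hhip* for myofibroblasts and peribronchial cells. They were taken by name from the 21462 genes of the deposited table, and all 10 had a mean of at least 10 and were among the 16659 genes tested. The data hold 4 libraries, 2 control and 2 Tet3 mutant, from the lungs of C57BL/6 mice. TET3 oxidizes 5-methylcytosine in DNA, and the comparison asks which genes depend on it in these cells.

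In the Tet3 mutant animals a floxed *Tet3* allele was deleted by α-SMA-ERT2Cre, a tamoxifen-inducible recombinase driven by the promoter of *Acta2*. A tdTomato reporter at the ROSA26 locus marked recombined cells. Controls of the study lacked the floxed allele and carried the Cre, the reporter or both. Those that gave sorted tdTomato-positive cells needed both. Tamoxifen was started at 8 weeks of age and given daily for 10 days at 75 mg per kg, and the age at collection for RNA is not stated. Lungs were perfused and digested, cells carrying the leukocyte marker CD45 or the erythroid marker Ter-119 were depleted with beads, and living tdTomato-positive cells were sorted. The *Acta2* promoter is also active in myofibroblasts and some pericytes, so the gate is not limited to SMCs. The labels do not say that the libraries of a group come from separate animals, whereas the study counts them so, and p-values measure only the spread between these samples.

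Lung fibroblasts occupy distinct niches. Alveolar fibroblasts lie beside the gas-exchange epithelium, store lipid and send growth signals to alveolar type 2 cells, and TCF21 and WNT2 are classical products of this mesenchyme. Adventitial fibroblasts surround large vessels and airways in collagen-rich cuffs and secrete matrix organizers such as dermatopontin. Cells beneath the airway epithelium, including airway smooth muscle and peribronchial fibroblasts, receive Hedgehog signals from the epithelium and carry HHIP and LGR6. None of the 10 proteins defines contractile smooth muscle by itself. In bulk RNA fewer cells of a type and less RNA per cell cannot be told apart.

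Values are normalized counts, scaled and rounded by the authors and given in the order of replicates 1 and 2, and their totals across genes ran from 6805272 to 7164573 per library. The read numbers before scaling were not estimated here, so no counting interval is attached. Control replicate 2 stood apart from the other 3 libraries. In 387 of 10888 genes with a mean of at least 100 it lay over 2-fold away from each other library, against 9 to 72 genes for the others. The X-linked transcript *Xist* had 2 normalized counts in it and 5214 to 6781 elsewhere, whereas the Y-linked *Ddx3y* had 774 in it and was listed at 0 elsewhere. Sex and control replicate 2 therefore cannot be told apart. The 10 genes are given with and without this library, and other genes and lists with the range over leaving out each library where that moves them by more than 1.5 times. The targeted gene *Tet3* had 1847 and 1926 normalized counts in controls against 1534 and 1444 in mutants (limma log2 fold change -0.34, SE 0.10, adjusted p 0.681). The counts cover the whole gene and do not separate the deleted exons.

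The label of the cells was compared with its markers. The 10 smooth muscle markers were present in every library and summed to 5076 and 6658 normalized counts in controls against 7842 and 7472 in mutants. The same libraries held fibroblast markers, since *Col1a1*, *Col1a2*, *Col3a1*, *Pdgfra*, *Dcn* and *Lum* summed to 19051 and 16431 in controls against 20774 and 18086 in mutants. Per kb of exon, *Col1a1* averaged 575 normalized counts and *Pdgfra* 472 over the 4 libraries, against 404 for *Acta2*, 292 for *Tagln* and 275 for *Myh11*. Epithelial *Sftpc* averaged 910 and endothelial *Cdh5* 532 per kb. Several markers of fibroblasts, alveolar type 2 cells and endothelium were thus higher per kb than *Acta2*, the highest of the smooth muscle markers. Each list also held lower markers, such as *Dcn* at 235, *Lum* at 187.5, *Etv5* at 240 and *Emcn* at 57.1 per kb. For smooth muscle, *Cnn1* averaged 44.9 per kb.

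The level of each fibroblast gene was compared per kb of exon length. *Inmt*, a methyltransferase of tryptamine and related amines, was the highest at a mean of 796 normalized counts per kb (734 to 841 over the 4 libraries), and *Npnt*, a matrix ligand of integrin α8β1, followed at 663 per kb (626 to 702). These ranges did not overlap. *Dpt*, a collagen-binding matrix protein, averaged 554 per kb (492 to 626), its highest library just reaching the lowest of *Npnt*. *Hhip*, a membrane-bound antagonist of Hedgehog ligands, averaged 352 per kb (265 to 396), separated from *Dpt*. *Tcf21* at 335 (255 to 390) and *Aspn* at 264 (171 to 313) overlapped *Hhip* and each other, and *Aspn* also overlapped *Wnt2*. *Wnt2* at 182 (120 to 224), *Mfap5* at 150 (128 to 163) and *Pi16* at 133 (122 to 138) formed a run of overlapping levels. *Lgr6*, a receptor for R-spondins, was the lowest at 33.8 per kb (25.0 to 40.7) and did not overlap with *Pi16*. The genes of alveolar fibroblasts therefore included the 2 highest levels, and the receptor gene the lowest.

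**Figure D1:**
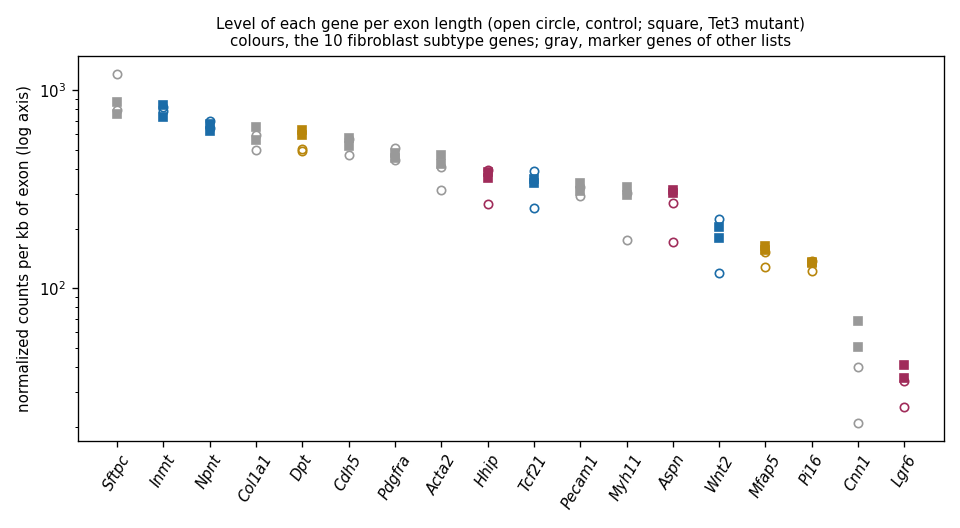
Normalized counts per kb of exon (log axis) of the 10 fibroblast subtype genes (colored by subtype) and 8 marker genes of other lists (gray), ordered by mean, with an open circle for each control library and a square for each Tet3 mutant library. Of the 10 genes, *Inmt* (mean 796) and *Npnt* (663) are the highest and *Lgr6* (33.8) is the lowest.

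Promoters are shown for 4 of the genes because TET3 acts on cytosines in CpG dinucleotides. They are *Dpt*, *Aspn* and *Lgr6*, which were higher in both mutant libraries than in both controls, and *Wnt2*, whose controls lay furthest apart. Each sequence is the 250 bases before the RefSeq start on GRCm38.p6, read 5′ to 3′ on the strand of the gene, with every CpG in capitals. *Dpt* is chr1:164796413-164796662 on the plus strand, *Aspn* chr13:49544193-49544442 on the plus strand, *Lgr6* chr1:135105277-135105526 on the minus strand and *Wnt2* chr6:18030446-18030695 on the minus strand.
Dpt: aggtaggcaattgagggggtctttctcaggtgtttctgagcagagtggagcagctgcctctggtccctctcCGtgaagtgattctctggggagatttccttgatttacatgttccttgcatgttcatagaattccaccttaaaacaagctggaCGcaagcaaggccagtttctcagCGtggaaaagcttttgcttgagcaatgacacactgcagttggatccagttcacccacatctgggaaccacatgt
Aspn: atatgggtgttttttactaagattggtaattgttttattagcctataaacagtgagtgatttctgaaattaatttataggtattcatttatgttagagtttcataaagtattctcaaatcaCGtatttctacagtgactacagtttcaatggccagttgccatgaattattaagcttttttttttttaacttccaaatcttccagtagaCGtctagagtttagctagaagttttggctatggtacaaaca
Lgr6: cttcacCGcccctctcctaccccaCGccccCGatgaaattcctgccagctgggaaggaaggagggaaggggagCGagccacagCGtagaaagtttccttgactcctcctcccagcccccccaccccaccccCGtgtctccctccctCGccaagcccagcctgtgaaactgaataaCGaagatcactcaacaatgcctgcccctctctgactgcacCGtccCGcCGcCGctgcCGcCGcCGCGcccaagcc
Wnt2: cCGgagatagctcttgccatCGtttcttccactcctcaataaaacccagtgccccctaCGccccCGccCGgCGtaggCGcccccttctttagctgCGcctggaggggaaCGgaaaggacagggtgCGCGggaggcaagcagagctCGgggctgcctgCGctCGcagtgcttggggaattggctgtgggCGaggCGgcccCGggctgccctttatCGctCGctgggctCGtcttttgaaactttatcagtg

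These windows differed in CpG content. *Dpt* held 3 CpG and *Aspn* 2, where the median of 32851 mouse promoters of that length was 6, whereas *Lgr6* held 16 and *Wnt2* held 20. At least as many CpG as in *Lgr6* occurred in 25.4% of promoters, and as in *Wnt2* in 17.9%. Of the others, *Inmt* held 0, *Pi16* 2, *Tcf21* 5, the 2 *Npnt* windows 21 and 23 and *Hhip* 28. RefSeq windows were matched by symbol for 9 of the 10 genes, and *Mfap5* was without one. The letters TATAAA, on either strand, occurred in *Aspn* and *Inmt* and in 12.4% of all promoters, and CAGCTG, an E-box, occurred in *Dpt*, *Inmt* and *Lgr6* and in 13.0% of all promoters. DNA methylation was not part of these libraries.

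The alveolar fibroblast genes showed no separation of the groups. *Tcf21* (ENSMUSG00000045680, chromosome 10, 22817281 to 22820174, GRCm38), a basic helix-loop-helix transcription factor of lung mesenchyme, had 916 and 599 normalized counts in controls against 835 and 799 in Tet3 mutants. Both mutants lay between the controls. The log2 fold change was 0.14 with an SE of 0.22 and a 95% interval of -0.42 to 0.70 (limma adjusted p 0.874). *Wnt2* (ENSMUSG00000010797, chromosome 6, 17988940 to 18030585), a secreted Wnt ligand, had 506 and 270 in controls against 460 and 402 in mutants, again inside the span of the controls. Its log2 fold change was 0.22 with an SE of 0.31 and an interval of -0.58 to 1.02 (limma adjusted p 0.862). Without control replicate 2 the log2 fold changes were -0.17 for *Tcf21* and -0.23 for *Wnt2*, and without control replicate 1 they were 0.45 and 0.67. The direction of both genes thus depended on which control was used.

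*Inmt* (ENSMUSG00000003477, chromosome 6, 55170626 to 55175043) stood at 1257 and 1320 normalized counts in controls against 1346 and 1174 in mutants. *Npnt* (ENSMUSG00000040998, chromosome 3, 132881745 to 132950291) stood at 3528 and 3258 in controls against 3391 and 3144 in mutants. For both genes the groups overlapped and the means lay close, with log2 fold changes of -0.04 (SE 0.12, 95% interval -0.33 to 0.26) and -0.05 (SE 0.11, interval -0.33 to 0.22), and limma adjusted p of 0.946 and 0.903. Without control replicate 2 these log2 fold changes were 7.3e-05 and -0.11. These intervals, on the log2(value + 1) scale, were the narrowest of the alveolar genes. Together the 4 alveolar genes summed to 6207 and 5447 in controls against 6032 and 5519 in mutants, and their median log2 fold change was 0.05, from -0.14 without control replicate 2 to 0.22 without control replicate 1.

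**Figure D2:**
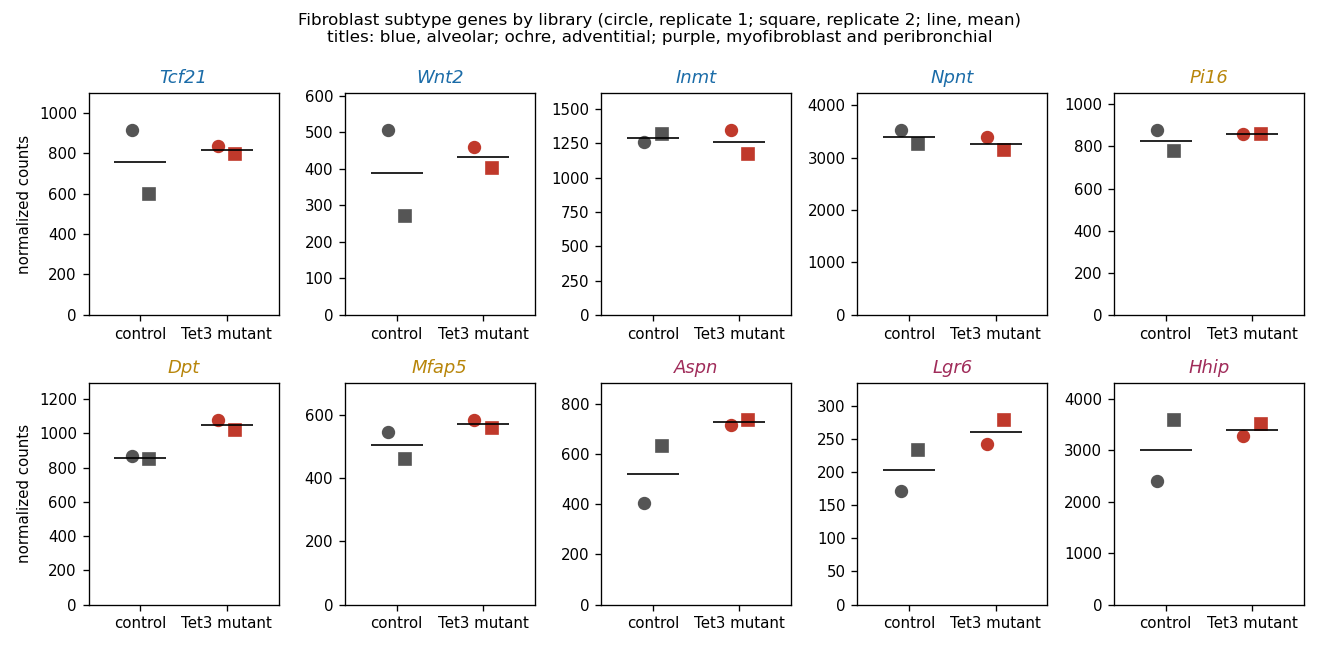
Normalized counts of each of the 10 genes, on axes that start at 0, with a circle for replicate 1, a square for replicate 2 and a line at each group's mean. The mutant points lie above both control points for *Dpt*, *Mfap5*, *Aspn* and *Lgr6*, and inside or across the control span for the other 6 genes.

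The adventitial fibroblast genes had higher means in the mutants, and *Dpt* was the clearest of them. *Dpt* (ENSMUSG00000026574, chromosome 1, 164796644 to 164824266) stood at 869 and 848 normalized counts in controls against 1080 and 1020 in mutants. Both controls were close together and both mutants were higher. Controls averaged 858.5 ± 14.8 (SD, n = 2) and mutants 1050 ± 42.4 (SD, n = 2), which is 22.3% higher. The log2 fold change was 0.29 with an SE of 0.10 and an interval of 0.03 to 0.55, at an unadjusted limma p of 0.0361 and an adjusted p of 0.681, so it did not pass. *Dpt* stayed between 0.25 and 0.33 when any single library was left out.

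*Mfap5* (ENSMUSG00000030116, chromosome 6, 122505845 to 122529290), a microfibril-associated glycoprotein that binds fibrillin, had 547 and 461 in controls against 585 and 558 in mutants. Its mutants were both higher than its controls, but the gap to control replicate 1 was small. The log2 fold change was 0.19 (SE 0.14, interval -0.16 to 0.53, limma adjusted p 0.727) and 0.06 without control replicate 2. *Pi16* (ENSMUSG00000024011, chromosome 17, 29317680 to 29330593), a secreted CAP-domain protein that marks adventitial fibroblasts in many organs, had 878 and 778 in controls against 861 and 858 in mutants. The mutants were inside the control span, with a log2 fold change of 0.06 (SE 0.11, interval -0.24 to 0.35, limma adjusted p 0.905) that was -0.03 without control replicate 2. An antisense gene overlaps 3.49% of its exon length, and counting by strand is not stated. With a median log2 fold change of 0.19, the 3 adventitial genes summed to 2294 and 2087 in controls against 2526 and 2436 in mutants.

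The myofibroblast and peribronchial genes included the 2 largest log2 fold changes of the 10, those of *Aspn* and *Lgr6*. *Aspn* (ENSMUSG00000021388, chromosome 13, 49544443 to 49567565), which encodes the small leucine-rich proteoglycan asporin that binds collagen and TGF-β, had 403 and 634 normalized counts in controls against 716 and 737 in mutants. The mutants lay close together while the controls lay far apart. Controls averaged 518.5 ± 163 (SD, n = 2) and mutants 726.5 ± 14.8 (SD, n = 2). The log2 fold change was 0.52 with an SE of 0.23 and an interval of -0.07 to 1.11 (limma adjusted p 0.681). *Lgr6* (ENSMUSG00000042793, chromosome 1, 134983301 to 135105276) stood at 171 and 234 in controls against 242 and 279 in mutants, with a log2 fold change of 0.38 (SE 0.21, interval -0.17 to 0.92, limma adjusted p 0.689). The controls of *Lgr6* averaged 202.5 ± 44.5 (SD, n = 2) and its mutants 260.5 ± 26.2 (SD, n = 2), and control replicate 2 lay close to the lower mutant.

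*Hhip* (ENSMUSG00000064325, chromosome 8, 79965851 to 80058006) stood at 2404 and 3590 in controls against 3278 and 3500 in mutants. Its highest library was a control, so the groups overlapped. Genes on the opposite strand overlap 1.93% of the exon length of *Hhip* and 0.297% of that of *Aspn*. The log2 fold change was 0.21 (SE 0.21, interval -0.32 to 0.73, limma adjusted p 0.793). For all 3 genes the value was larger without control replicate 2, which was the higher control, at 0.85 for *Aspn*, 0.60 for *Lgr6* and 0.49 for *Hhip*. Without control replicate 1 the values were 0.20, 0.15 and -0.08, the last of opposite sign. With a median log2 fold change of 0.38, the 3 genes summed to 2978 and 4458 in controls against 4236 and 4516 in mutants, so in sum mutant replicate 1 lay below control replicate 2.

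**Figure D3:**
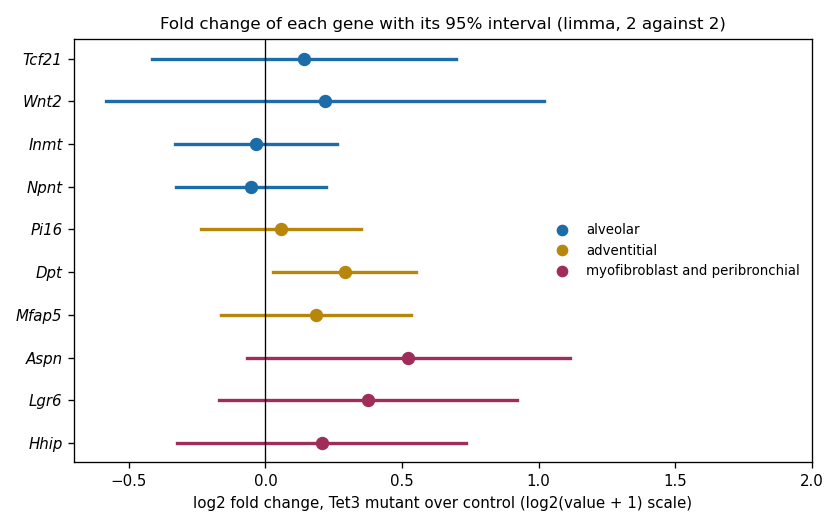
Log2 fold change (Tet3 mutant minus control) of the 10 genes on the log2(value + 1) scale, as a point with the 95% limma interval as a line, colored by subtype. Only the interval of *Dpt* lies wholly above 0, and the adjusted p of *Dpt* is 0.681.

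Across the 10 genes, 0 had an adjusted limma p under 0.05, as did 0 of the 16659 genes tested (0.0%). At an unadjusted limma p under 0.05 there was 1 of 10, *Dpt*, beside 1112 of all genes (6.68%). In 4 of 10, namely *Dpt*, *Mfap5*, *Aspn* and *Lgr6*, both mutants exceeded both controls, beside 3259 of all genes (19.6%), and in 0 of 10 both were lower, beside 3241 (19.5%). The log2 fold change was above 0 in 8 of 10, with a median of 0.20, beside a median of -0.0069 over all genes, of which 49.0% lay above 0. The smallest p that an exact permutation test allows with 2 against 2 samples is 0.333. Without control replicate 2 the median over the 10 was 0.031, and without control replicate 1 it was 0.17.

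*Wnt2*, *Tcf21*, *Aspn*, *Hhip* and *Lgr6* differed more between the controls than between the mutants. The same held to a lesser degree for *Mfap5* and *Pi16*, and by a small margin for *Npnt*. In control replicate 1 relative to control replicate 2, *Wnt2* was 1.87 times as high, *Tcf21* 1.53 times and *Mfap5* 1.19 times, whereas *Aspn* was at 0.636, *Hhip* at 0.670 and *Lgr6* at 0.731. In mutant replicate 1 relative to mutant replicate 2 every one of the 10 lay between 0.867 and 1.15. The alveolar genes *Tcf21* and *Wnt2* and the 3 peribronchial genes therefore differed in opposite directions between the controls. Over all genes, 48.9% were higher in control replicate 1 and the median difference was 0. The age, batch and sex of the control animals are not in the labels. The controls did differ in sex-linked RNA, with *Xist* at 6781 and 2 and *Ddx3y* at 0 and 774 normalized counts. The part of age, batch and sex in these differences was not tested.

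**Figure D4:**
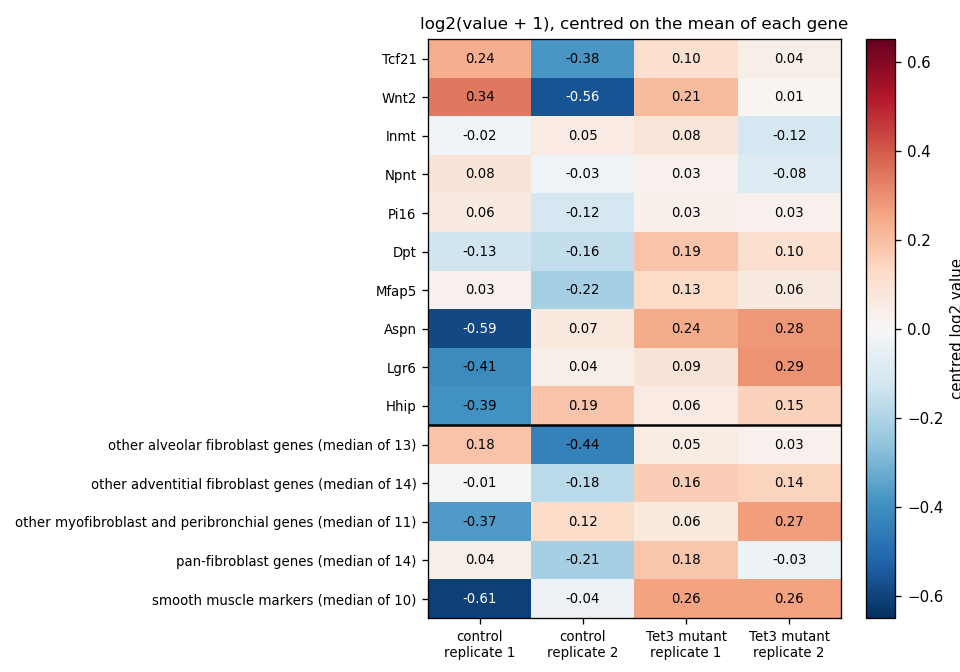
Log2(value + 1) of each gene in each library, centred on the gene's mean over the 4 libraries, with the number printed in each cell and, in the rows under the line, the medians of 5 other gene lists. Control replicate 1 is low for *Aspn*, *Lgr6* and *Hhip*, and control replicate 2 is low for *Wnt2* and *Tcf21*.

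Markers of smooth muscle were followed beside these genes. All 10 had log2 fold changes above 0, at a median of 0.52, with 7 of 10 higher in both mutants. The median was 0.29 without control replicate 1 and 0.85 without control replicate 2, and 3 of 10 had an unadjusted limma p under 0.05. None was at 0 in any library. Only 1 of the 10 was higher in control replicate 1 than in control replicate 2, and all 3 peribronchial genes were likewise lower in control replicate 1. Per 1000 smooth muscle marker counts, *Aspn* had 79.4 and 95.2 in controls against 91.3 and 98.6 in mutants, and *Lgr6* had 33.7 and 35.1 in controls against 30.9 and 37.3 in mutants. *Hhip* had 474 and 539 in controls against 418 and 468 in mutants on that scale. Relative to these markers the groups of *Aspn* and *Lgr6* overlapped, whereas *Hhip* was lower in both mutants than in both controls. *Dpt* had 171 and 127 in controls against 138 and 137 in mutants, also overlapping. *Inmt* had 248 and 198 in controls against 172 and 157 in mutants, and *Npnt* had 695 and 489 against 432 and 421. *Pi16* had 173 and 117 in controls against 110 and 115 in mutants. These genes were lower in both mutants on this scale, and no gene of the 10 was higher in both. The marker sum itself was higher in both mutants, so a gene with unchanged counts is lower on this scale. The share of all genes lower on it was not computed.

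Scaled to the 6 fibroblast markers, *Dpt* had 45.6 and 51.6 per 1000 marker counts in controls against 52.0 and 56.4 in mutants, so the mutants stayed higher by a small margin. *Npnt*, with 185 and 198 in controls against 163 and 174 in mutants, was lower in both mutants. So was *Inmt*, with 66.0 and 80.3 against 64.8 and 64.9, and the other 7 genes overlapped. The share of all genes without overlap on this scale was not computed. *Mfap5* had 28.7 and 28.1 in controls against 28.2 and 30.9 in mutants, and *Aspn* had 21.2 and 38.6 in controls against 34.5 and 40.7 in mutants, both overlapping. *Tcf21* and *Wnt2* had 36.5 to 48.1 and 16.4 to 26.6 in controls, which enclosed the mutants. Of the 14 pan-fibroblast genes 13 had a log2 fold change above 0 (median 0.18, and 0.05 to 0.29 with 1 library left out, or 0.07 without control replicate 2) and 5 were higher in both mutants, and they summed to 38666 and 32747 in controls against 40976 and 35915 in mutants. The lumican gene *Lum* had 403 and 336 in controls against 523 and 574 in mutants (log2 fold change 0.57, unadjusted limma p 0.0111), and *Pdpn*, a mucin-like membrane protein of stroma, had 339 and 245 in controls against 426 and 404 in mutants (0.52, or 0.29 without control replicate 2). Both missed the adjusted threshold. The part of cell composition in the member values was not tested.

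Genes that share a subtype with the 10 were compared next. Of 13 other alveolar fibroblast genes, 0 had an unadjusted limma p under 0.05 and 12 were higher in control replicate 1 than in control replicate 2, as were *Tcf21*, *Wnt2* and *Npnt*. Their median log2 fold change was 0.08, and ran from -0.09 without control replicate 2 to 0.45 without control replicate 1. Of 14 other adventitial genes 6 were higher and 2 lower in both mutants, with a median of 0.23. The largest log2 fold change of the 14 was that of *Adh7*, with 133 and 44 in controls against 259 and 190 in mutants. It was 1.52, or 0.73 without control replicate 2 and 2.31 without control replicate 1. *Serpinf1*, which encodes PEDF, had 494 and 367 in controls against 588 and 607 in mutants (log2 fold change 0.49, or 0.27 without control replicate 2). By contrast *Il33*, an epithelial and stromal alarmin, had 624 and 1108 in controls against 414 and 593 in mutants. Its log2 fold change was -0.75, from -0.33 without control replicate 2 to -1.16 without control replicate 1. Without control replicate 2 the median of the 14 was 0.063. Of 11 other myofibroblast and peribronchial genes 3 were higher in both mutants, with a median of 0.38, the same as for *Aspn*, *Lgr6* and *Hhip*, and ranged from -0.04 without control replicate 1 to 0.65 without control replicate 2. *P2ry14*, a UDP-sugar receptor, had 166 and 187 in controls against 261 and 260 in mutants (0.56, SE 0.16, limma adjusted p 0.681), and *Wif1*, a secreted Wnt inhibitor, had 40 and 67 in controls against 98 and 95 in mutants (0.88, or 0.52 without control replicate 1).

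*Hhip* belongs to the Hedgehog pathway, in which ligands bind PTCH1 and release SMO, and GLI transcription factors raise *Gli1*, *Ptch1* and *Hhip* in target cells. *Gli1* had 372 and 200 normalized counts in controls against 512 and 365 in mutants, and *Ptch1* had 2171 and 1368 in controls against 1947 and 1756 in mutants. Unlike *Hhip*, both of these targets were higher in control replicate 1. The ligand gene *Shh* had 33 and 93 in controls against 10 and 20 in mutants (log2 fold change -1.90, unadjusted limma p 0.0307, adjusted 0.681), and without control replicate 2 the log2 fold change was -1.16. *Smo*, the co-receptor genes *Boc* and *Gas1* and the ligand gene *Dhh* were higher in both mutants. Of the 13 tested genes, 0 passed the adjusted threshold, 9 were above 0 and the median was 0.16, from 0.02 without control replicate 2 to 0.51 without control replicate 1. *Shh* is made by epithelium, and the 10 alveolar type 2 markers summed to 17014 and 25448 in controls against 12254 and 15344 in mutants, with 8 lower in both mutants and a median log2 fold change of -0.60, from -0.32 without control replicate 2 to -0.84 without Tet3 mutant replicate 2. Their part in the *Shh* value was not tested.

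*Lgr6* belongs to the R-spondin axis, in which R-spondins and LGR receptors withdraw the ubiquitin ligases ZNRF3 and RNF43 from Frizzled receptors. *Znrf3* had 1095 and 880 in controls against 661 and 670 in mutants (log2 fold change -0.56, SE 0.14, limma adjusted p 0.681). *Rnf43* had 151 and 467 in controls against 89 and 96 in mutants, with a log2 fold change of -1.51 that was -0.70 without control replicate 2 and -2.32 without control replicate 1. These 2 of 17 genes had an unadjusted limma p under 0.05, and both were lower in both mutants. The receptor *Lgr5* had 49 and 122 in controls against 104 and 110 in mutants, and *Axin2*, a target of Wnt signaling, had 915 and 989 in controls against 1024 and 952 in mutants, both overlapping, and *Lgr4* had 242 and 169 in controls against 183 and 198 in mutants. The median over the 17 was -0.0060, from -0.13 without control replicate 2 to 0.096 without control replicate 1.

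*Aspn* lies on chromosome 13 next to other small leucine-rich proteoglycan genes. *Omd* had 61 and 42 in controls against 93 and 79 in mutants, both mutants higher. *Ogn* had 1791 and 1637 in controls against 1947 and 1697 in mutants, and *Ecm2*, which also lies there, had 997 and 847 in controls against 1003 and 971 in mutants. The neighbors were higher in control replicate 1, whereas *Aspn* was higher in control replicate 2. Of the 9 tested proteoglycan genes other than *Aspn*, 9 were above 0 with a median of 0.21, and 3 (*Lum*, *Dcn* and *Omd*) were higher in both mutants, but the median was 0.02 without control replicate 2. For *Mfap5*, 15 microfibril and elastic-fiber genes had a median of 0.17, with 14 above 0 and 7 higher in both mutants, and medians of 0.05 without control replicate 2 and 0.30 without control replicate 1. *Fbln2*, which encodes a fibulin, had 1078 and 1018 in controls against 1372 and 1366 in mutants (log2 fold change 0.39, SE 0.10, unadjusted limma p 0.0114, adjusted 0.681), and elastin *Eln* had 1724 and 2108 in controls against 3238 and 2263 in mutants. The 5 genes *Tcf12*, *Tcf3*, *Tcf4*, *Itga8* and *Itgb1* encode partners of TCF21 and nephronectin and lay between -0.04 and 0.06, with medians of -0.15 without control replicate 2 and 0.14 without control replicate 1. *Itga8*, an integrin subunit that binds nephronectin, had 4108 and 3322 in controls against 3712 and 3635 in mutants.

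Over the 156 genes of these lists with a mean of at least 50, the pattern of the 4 log2 values most like that of *Aspn* was that of the smooth muscle gene *Synpo2*, at a distance of 0.031 where the median distance was 0.80. *Hhip* was most like *Enpp2*, at 0.044, and *Lgr6* also, at 0.19. *Dpt* was most like the smooth muscle gene *Tagln* at 0.109, with *Igfbp4* nearly as close at 0.114. *Mfap5* was most like *Efemp2* at 0.038 and *Pi16* most like *Ecm2* at 0.070. *Tcf21* was most like *Ltbp1* at 0.062 and *Wnt2* most like *Col13a1*, another alveolar fibroblast gene, at 0.14. *Npnt* was most like *Lrp6* at 0.031 and *Inmt* most like *Ltbp4* at 0.092. With 4 libraries these distances describe the libraries and not a relation between genes.

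**Figure D5:**
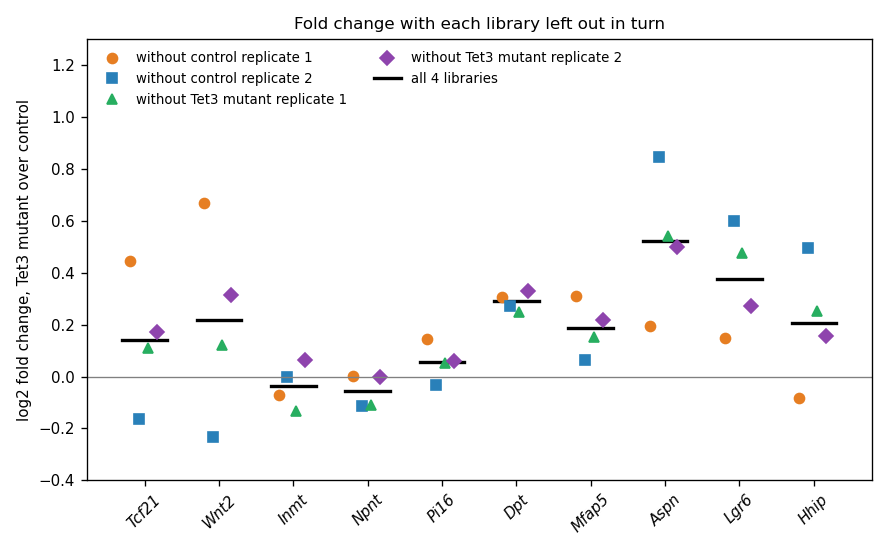
Log2 fold change of the 10 genes in all 4 libraries and after leaving out each library in turn, as a black line and 4 colored symbols. *Dpt*, *Mfap5*, *Aspn* and *Lgr6* stay above 0 throughout, as they must where both mutants exceed both controls. *Tcf21*, *Wnt2* and *Pi16* are below 0 without control replicate 2.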

How the data were processed

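RNA was measured in 2 control and 2 Tet3 mutant libraries, grouped by the genotype in their labels. The authors depleted ribosomal RNA and made stranded total RNA libraries, sequenced in single-end mode. The submitters' processing notes name Trimmomatic 0.36, STAR 2.6.0c and featureCounts from Subread 1.6.0, with mm10 (GRCm38), and by the methods reads that mapped to several places or genes were excluded. Counts were scaled between libraries by the authors with DESeq2 and deposited after rounding, as a score of normalized counts, so no count model was run. Exon lengths came from GENCODE M21, in which 98.9% of the genes had the same coordinates, and promoters from RefSeq.

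Values were compared on log2(value + 1), which understates changes of low genes, with limma 3.58.1 in R 4.3.3 (mean-variance trend, Benjamini-Hochberg adjustment over all 16659 genes with a mean of at least 10, threshold 0.05). The fit was tested on simulated data. The 10 genes, the 16 other lists and the alternatives were chosen with earlier results of these data known, and no list was tested as a set. All 10 genes were named. From the other lists, genes were named at an unadjusted p under 0.05 with groups that did not overlap, or as the 2 of smallest p, or as members of the Hedgehog, R-spondin and proteoglycan lists. Other genes were named after their values were seen. Likeness was the Euclidean distance between log2(value + 1) values centred on each gene's mean. Alternatives were pseudocounts of 0.5 and 8, minimum means of 1 and 50, TMM factors, equal totals, no trend, a replicate block, and each library left out.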

Additional observations from a re-analysis of the deposited data

How the results depend on the processing

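Under 12 alternative settings *Dpt*, *Mfap5*, *Aspn* and *Lgr6* kept their direction. Leaving out 1 library could not change it, because both mutants exceeded both controls. The pseudocounts, minimum means, missing trend and replicate block could not change it either. With all 4 libraries kept, 0 of the 10 genes passed the adjusted threshold under any alternative. With equal library totals 2 of the 10 had an unadjusted limma p under 0.05 and the median over the 10 was 0.24, a scaling that moved the median of all genes from -0.0069 to 0.042, and *Inmt* changed sign to 0.013. Without the trend 0 of the 10 had an unadjusted p under 0.05, and 1 of all genes passed the adjusted threshold. Leaving out 1 library at a time, the number of the 10 at an unadjusted p under 0.05 ran from 0 to 4, the median over the 10 from 0.031 to 0.20 and the adventitial median from 0.063 to 0.31. The ranges were -0.17 to 0.45 for *Tcf21*, -0.23 to 0.67 for *Wnt2*, -0.13 to 0.063 for *Inmt*, -0.11 to 0.0032 for *Npnt*, -0.031 to 0.14 for *Pi16* and -0.084 to 0.49 for *Hhip*. *Tcf21*, *Wnt2* and *Pi16* were below 0 without control replicate 2, and *Hhip* without control replicate 1. In these fits limma had 1 residual degree of freedom and the lone library was assumed to vary like the other group. The cause of these changes was not tested. In a fit with a replicate block 0 genes passed, 1637 had an unadjusted p under 0.05, and the fold changes of the 10 genes were the same. Same-numbered libraries deviated together with a Pearson correlation of 0.13 over 2 pairs. With 2 libraries a group this compares a single difference in each group. It therefore cannot tell whether same-numbered samples share more than a number. Rounding and 2 libraries a group limit the precision.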

Other observations

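Markers of cells that the sort was not aimed at were present in every library. The 10 hematopoietic markers summed to 5106 and 3873 normalized counts in controls against 6099 and 5681 in mutants, and 7 were higher in both mutants, with a median log2 fold change of 0.76 that was 0.23 without control replicate 2 and 1.01 without control replicate 1. The 8 pericyte markers summed to 3424 and 3681 in controls against 5050 and 4354 in mutants, with a median of 0.52 (0.43 to 0.64 with 1 library left out) and 6 higher and 1 lower in both mutants. The 10 endothelial markers summed to 20248 and 18976 in controls against 21506 and 20514 in mutants, with a median of 0.09 that was -0.0026 without control replicate 2 and 0.20 without control replicate 1.

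The 8 mesothelial markers summed to 1454 and 851 in controls against 980 and 1061 in mutants, and 7 of 8 were higher in control replicate 1 than in control replicate 2. The median log2 fold change was -0.39, but it turned to 0.19 without control replicate 1 and was -1.22 without control replicate 2. The 4 tested Schwann and neural markers summed to 296 and 443 in controls against 312 and 412 in mutants. No gene of these lists was at 0 in any library or passed the adjusted limma threshold.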
